A study of Mus musculus with 23 samples.

Results

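The subunits of respiratory complex I were examined in the CA3 region of the hippocampus of UBB+1 transgenic (tg) mice and wild-type mice. They were taken as every probe set on the Affymetrix MOE430A and MOE430B mouse arrays whose annotation names a single gene with a symbol starting Ndufa, Ndufb, Ndufc, Ndufs or Ndufv, without the assembly factors called Ndufaf. This gave 36 of the 18192 genes that both arrays name, with 78 of 45136 probe sets, 68 of 22625 on MOE430A for 34 genes and 10 of 22511 on MOE430B for 8 genes. A further 10 probe sets name a subunit together with another gene and were left out. No probe set of Ndufs6 or of Ndufa11 names that gene alone, and these genes and the subunits encoded by mitochondrial DNA were not analysed here.

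Complex I, NADH:ubiquinone oxidoreductase, is the entry point of electrons from NADH into the mitochondrial respiratory chain. Its matrix arm holds the flavin and the iron-sulfur clusters along which electrons pass to ubiquinone, and its membrane arm pumps protons. Core subunits carry this chemistry, while accessory subunits surround the core and are needed to build or hold the complex. Neurons depend on it for ATP, and its defects are a frequent cause of mitochondrial disease of the brain, such as Leigh syndrome.

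UBB+1 is a form of ubiquitin B with a shifted reading frame that inhibits the proteasome. The tg animals carried human UBB+1 under the CaMKIIα promoter, which drives it in postnatal neurons, strongest in the forebrain, and the wild-type animals carried no transgene. All animals were 18 months old and on the C57BL/6J background. CA3 was cut by laser from stained brain sections, and RNA was amplified before hybridization. MOE430A held 6 UBB+1 tg (tg270 to tg277) and 5 wild-type mice (wt287 to wt321), and MOE430B held 6 of each, with wt331 added. Each mouse gave 1 array of a kind, so that the spread between arrays includes that between animals. Values are intensities after RMA (robust multi-array average) on the log2 scale, on which a difference of 1 is a doubling, and they compare a probe set between animals but not probe sets with each other.

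Of the CA3 markers, Bok, Nectin3 and Iyd lay at the 96.9th, 92.5th and 85.3rd percentile of mean intensity on MOE430A, and Grik4 and a second Nectin3 probe set at the 90.0th and 20.5th on MOE430B. Bok averaged 10.87 in UBB+1 tg and 10.97 in wild-type mice, Nectin3 on MOE430A 9.94 and 9.49, and Iyd 8.9 and 8.48. On MOE430B, Grik4 averaged 7.55 and 7.68, and the second Nectin3 probe set 4.19 and 4.38. The markers of dentate granule cells spanned the 1.8th (Prox1) to 31.0th percentile on MOE430A and the 13.5th to 73.2nd (C1ql2) on MOE430B. Some markers of other cells and fields were also bright. On MOE430A, Mbp and Cnp of oligodendrocytes lay at the 99.2nd and 97.7th percentile, Csf1r of microglia at the 94.5th and Gja1 of astrocytes at the 92.2nd. Rgs14 and Pcp4 of CA2 lay at the 83.8th and 85.5th, and Sst and Pvalb of interneurons at the 87.6th and 87.8th. Mpped1 of CA1 was at the 86.8th on MOE430B. Other markers of the same lists were dimmer, such as Mog (19.5th), P2ry12 (17.4th), Aqp4 (42.6th) and Vip (38.1st) on MOE430A. On MOE430B, Fibcd1 of CA1 and Amigo2 of CA2 lay at the 42.1st and 60.9th. Their part in the values of complex I was not tested. In bulk tissue, fewer cells of a kind and less RNA per cell cannot be told apart.

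The arrays were clustered on all probe sets other than those of complex I and divided into 3 sets, a number fixed and not estimated. The values of many members on MOE430A followed these array sets. The sets separate also by the 3'-5' difference, the log2 signal of the 3' over the 5' control probe sets of Gapdh and beta-actin. It grows as the amplified copies become shorter at their 5' ends. On MOE430A this difference was 2.65 to 3.43 in the low set (1 UBB+1 tg and 2 wild-type mice), 4.44 to 4.62 in the middle set (4 UBB+1 tg and 2 wild-type mice) and 6.05 to 6.10 in the high set (1 mouse of each genotype). The genotypes therefore share each set, but unequally. The 3'-5' difference averaged 4.61 ± 0.83 in UBB+1 tg and 4.10 ± 1.45 in wild-type mice (SD, n = 6 and 5, two-sided exact permutation p = 0.455).

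Subunits of complex I were among the bright probe sets of MOE430A. Their mean intensity had a median percentile of 95.6, and 66 of the 68 lay above the median of the array. The brightest were Ndufa13, a membrane-arm subunit also called Grim-19, with 12.82 ± 0.39 in UBB+1 tg and 13.10 ± 0.42 in wild-type mice (SD, n = 6 and 5), and a probe set of Ndufs8 (1434579_x_at), an iron-sulfur protein, with 12.68 ± 0.25 and 12.69 ± 0.28. The 2 members below the median of the array were single probe sets of Ndufab1 (1435934_at, 3.73 in UBB+1 tg and 3.72 in wild-type mice) and of Ndufa12 (1425919_at, 4.03 and 4.10), genes whose other probe sets were bright.

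No complex I probe set differed between UBB+1 tg and wild-type CA3 at a false discovery rate of 10%, although most were lower in UBB+1 tg mice. On MOE430A, 55 of 68 (80.9%) had a lower mean in UBB+1 tg mice, against 48.3% of all probe sets. The median log2 fold change, taken as UBB+1 tg over wild type, was -0.22 over complex I, within a range of -1.13 to 0.39, and 0.00 over all probe sets. It was -0.36 without UBB+1 tg mouse tg271 and -0.12 without UBB+1 tg mouse tg277. Taking the brightest probe set of each gene, 28 of 34 genes were lower, with a median of -0.22. Adjusted p-values from limma with the Benjamini-Hochberg method ran from 0.984 to 0.998, and 0% of all probe sets passed on each array. At an unadjusted p under 0.05 from limma, 1 of 68 members was lower, beside a background of 1.57% of all probe sets, and 0 were higher, beside 1.91%. The members' share of single calls was thus near the background, while their direction was one-sided. Members of 1 complex on the same arrays are not independent, and the direction was not tested as a group.

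**Figure D1:**
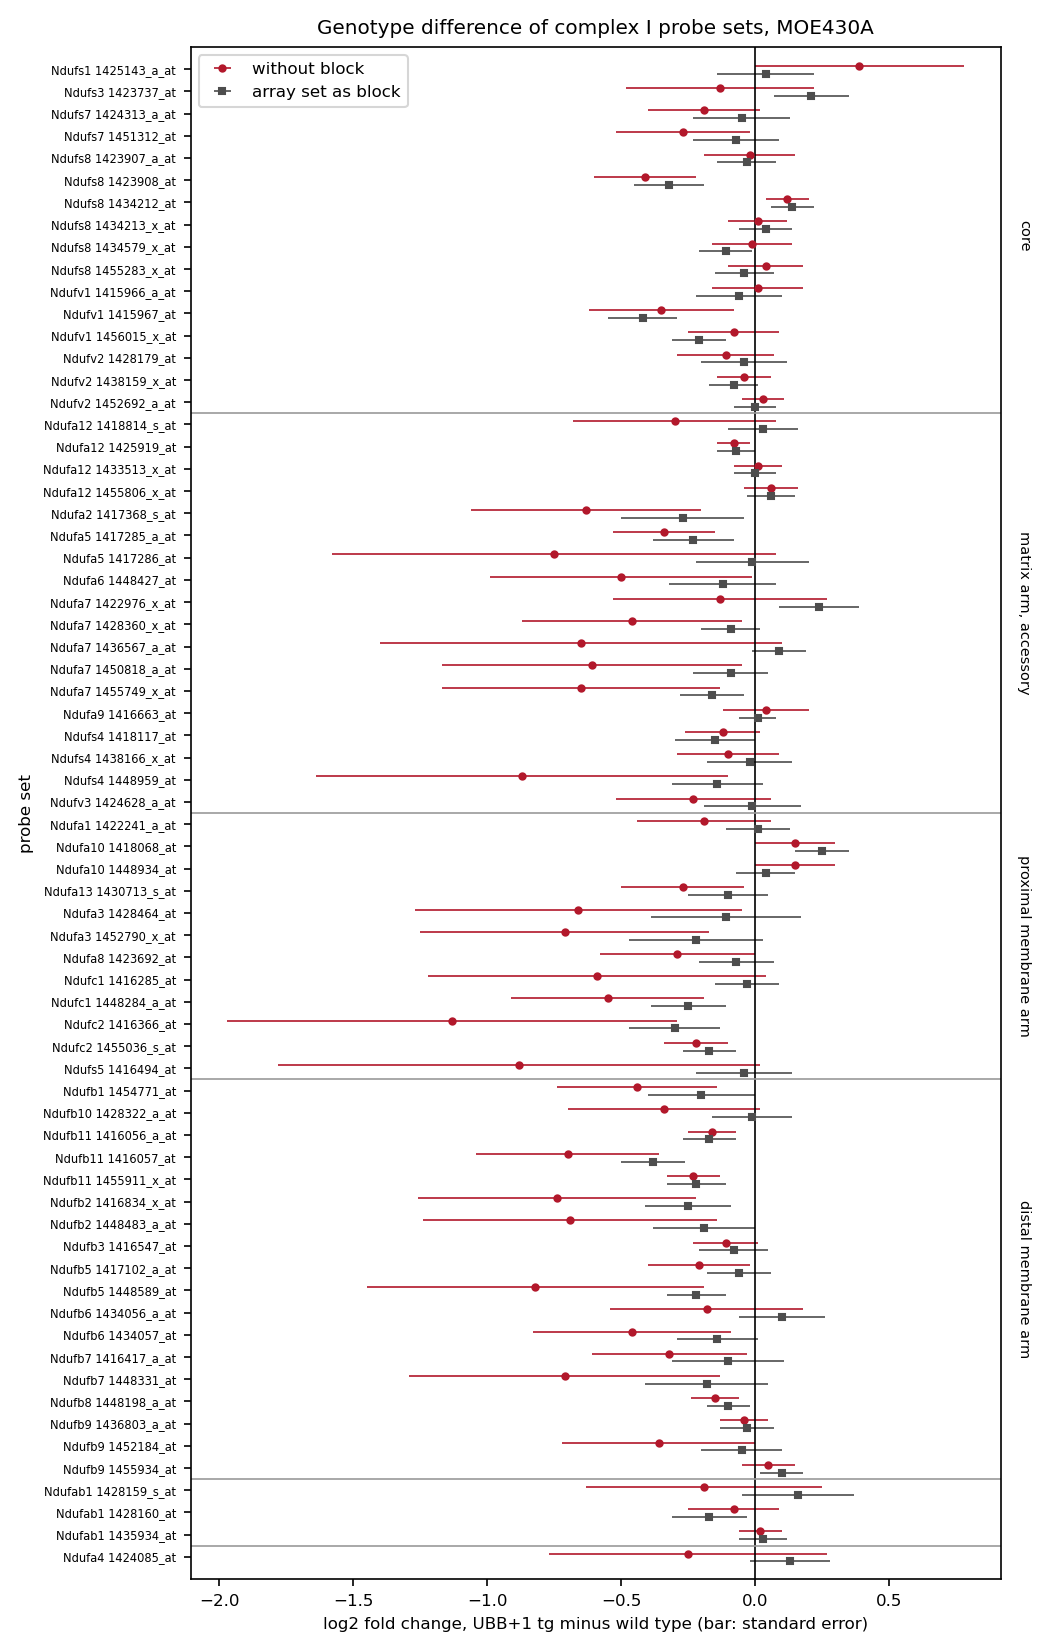
Log2 fold change of UBB+1 tg over wild type (horizontal axis) of the 68 complex I probe sets on MOE430A, grouped by place in the complex, with bars of 1 standard error. Red points are from the fit on genotype alone and grey squares from the fit with the array set as block. The red median is -0.22 and the grey median -0.07.

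Much of the spread between mice followed the array sets. In 33 of 68 complex I probe sets (48.5%), all 6 mice of the middle set lay below all 5 mice of the low and high sets, whatever their genotype. This held for 3.93% of all probe sets of MOE430A, and for 11.3% of the brightest 10%. The opposite order, with the middle set on top, was seen in 3 members and in 3.09% of all probe sets. The mean deviation of the 68 probe sets from their own averages was 0.30, 0.56, -0.26, -0.25, -0.46 and -0.67 in UBB+1 tg mice tg270, tg271, tg273, tg274, tg276 and tg277. It was 0.52, 0.35, 0.41, -0.29 and -0.21 in wild-type mice wt287, wt289, wt290, wt291 and wt321. The 2 mice with the largest and the 3 with the smallest 3'-5' difference were above 0, and the 6 mice between them were below 0. The part of RNA amplification in this pattern was not tested.

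**Figure D2:**
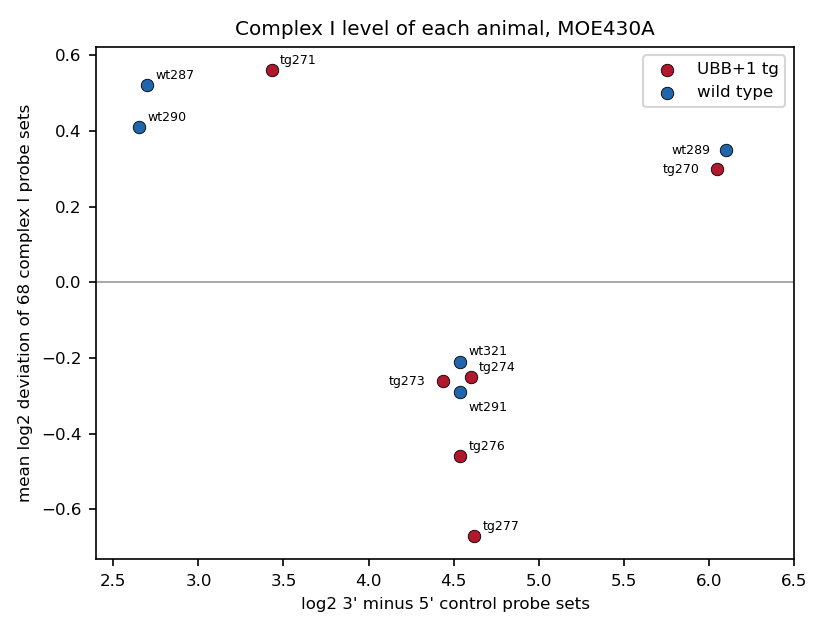
Mean log2 deviation of the 68 complex I probe sets of MOE430A in each mouse (vertical axis) against its 3'-5' difference (horizontal axis), red for UBB+1 tg and blue for wild type. The 6 mice between 4.44 and 4.62 lie below 0, from -0.67 to -0.21, and the other 5 lie from 0.30 to 0.56.

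In a fit with the array set as block, which compares the genotypes within sets, 49 of 68 probe sets (72.1%) were lower in UBB+1 tg mice. Of all probe sets, 48.1% were lower. The median log2 fold change was -0.07, against 0.01 for all probe sets. Of the 68, 3 were lower at an unadjusted p under 0.05 by limma, beside 3.42% of all probe sets, and 1 was higher, beside 3.77%. The sets were built from these same arrays, so the p-values of the blocked fit are descriptive. In the middle set alone, 59 of 68 (86.8%) were lower in the 4 UBB+1 tg than in the 2 wild-type mice, against 47.8% of all probe sets. The median there was -0.18, against 0.01, and 4 members were lower at an unadjusted p under 0.05, beside 2.72%. Over the 68, UBB+1 tg mice tg273 (-0.26) and tg274 (-0.25) had mean deviations between those of wild-type mice wt291 (-0.29) and wt321 (-0.21). Those of tg276 (-0.46) and tg277 (-0.67) were lower. In all 3 sets, 10 of 68 were lower in UBB+1 tg mice, beside 11.6% of all probe sets. No member passed the false discovery rate in these fits, and 0% of all probe sets of either array did in the blocked fit. The count of members lower at an unadjusted p under 0.05 was 26 with array weights, beside 5.3% of all probe sets, and 9 without UBB+1 tg mouse tg271, beside 3.16%. That mouse had the lowest array weight on MOE430A, 0.424, and the highest complex I mean.

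**Figure D3:**
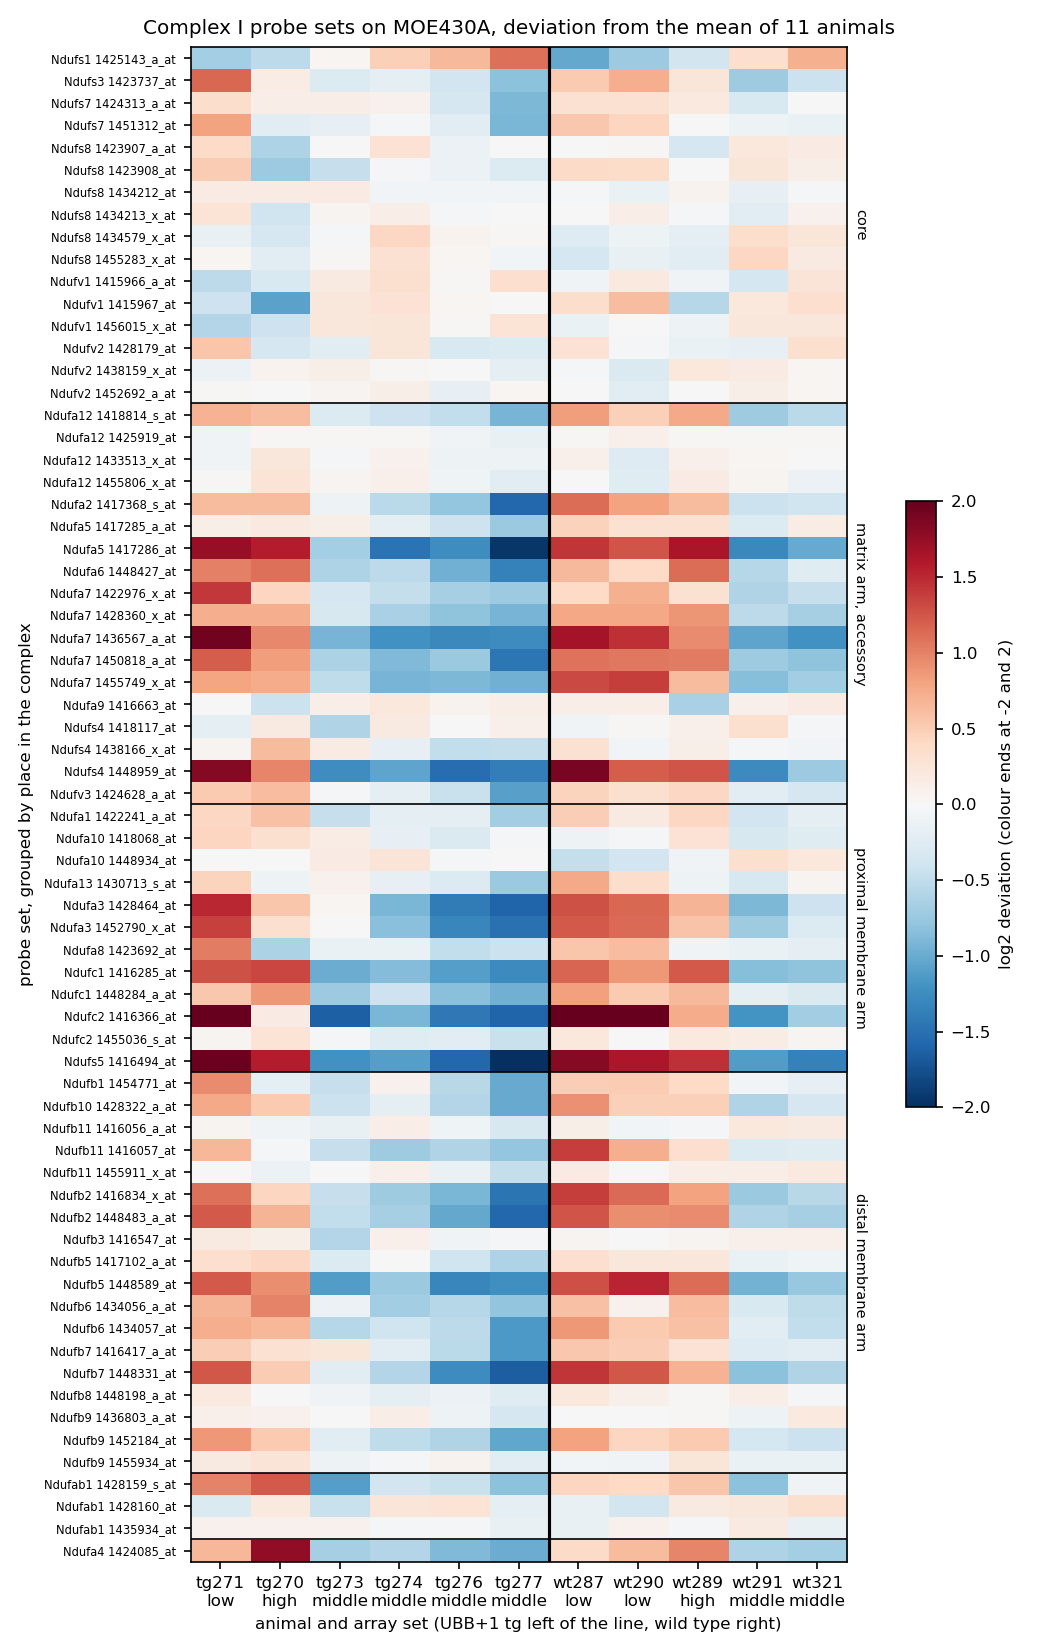
Log2 deviation of each complex I probe set (rows, grouped by place in the complex) from its mean over 11 mice on MOE430A, UBB+1 tg columns left of the line and wild-type columns right of it, with the array set under each mouse. The low and high sets are red and the middle set blue in most accessory rows of both genotypes, and most core rows are pale.

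The members were also grouped by their place in the complex. Among the 16 probe sets of 6 core subunits, 10 were lower in UBB+1 tg mice, with a median log2 fold change of -0.03, and in 2 of 16 the middle set lay wholly below the others. Among the 18 of the accessory subunits of the matrix arm, 15 were lower with a median of -0.32, and in 11 the middle set lay below. In the proximal membrane arm these were 10 of 12, a median of -0.42 and 7 of 12, and in the distal membrane arm 17 of 18, a median of -0.33 and 11 of 18. In the blocked fit the medians were -0.05 for core subunits, -0.05, -0.09 and -0.12 for the matrix, proximal and distal accessory subunits, and 16 of 18 distal probe sets were lower. The difference between core and accessory subunits was not tested.

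Of the core subunits, Ndufs1, which holds iron-sulfur clusters near the site of NADH oxidation, ran opposite to most members. Its log2 intensity was 9.43, 9.27, 9.99, 10.43, 10.60 and 11.05 in UBB+1 tg mice tg270 to tg277, and 8.93, 9.59, 9.23, 10.28 and 10.66 in wild-type mice wt287 to wt321. All mice of the middle set were above all others, and the genotypes overlapped. Its log2 fold change was 0.39 (standard error 0.39), the highest of all members, and 0.04 (standard error 0.18) with the block.

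Ndufv1 binds the flavin that accepts electrons from NADH. Its probe set 1415967_at read 9.73, 10.39, 11.04, 11.10, 10.84 and 10.80 in UBB+1 tg mice, and 11.16, 10.23, 11.42, 11.02 and 11.14 in wild-type mice. The high-set mouse was the lowest of each genotype. The log2 fold change was -0.35 (standard error 0.27), and -0.42 (standard error 0.13, unadjusted p = 0.0103, adjusted p = 0.665 by limma) with the block, from -0.90, -0.14 and -0.50 in the low, middle and high sets. Without the block it was -0.16 when UBB+1 tg mouse tg270 was left out and -0.54 when wild-type mouse wt289 was. The other probe sets of Ndufv1 gave 0.01 and -0.08, and -0.06 and -0.21 with the block.

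Ndufs8, which carries iron-sulfur clusters on the path of electrons to ubiquinone, had 6 probe sets that spanned -0.41 to 0.12. The lowest, 1423908_at, read 8.80, 10.04, 9.07, 9.50, 9.42 and 9.25 in UBB+1 tg mice and 9.92, 9.52, 9.90, 9.77 and 9.64 in wild-type mice, with UBB+1 tg mouse tg271 above every wild-type mouse. Its log2 fold change was -0.41 (standard error 0.19, unadjusted p = 0.0533 and adjusted p = 0.984 by limma), and -0.32 (standard error 0.13, unadjusted p = 0.0304) with the block. The brightest probe set of the gene differed by -0.01 (standard error 0.15).

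The brightest probe sets of the other core subunits showed small differences. Ndufs3, a matrix-arm core subunit, averaged 10.46 ± 0.67 in UBB+1 tg and 10.59 ± 0.62 in wild-type mice (SD, n = 6 and 5), with log2 fold changes of -0.13, and 0.21 with the block. Ndufs7, which bears the last iron-sulfur cluster before ubiquinone, averaged 11.72 ± 0.45 and 11.90 ± 0.26, a log2 fold change of -0.19. Ndufv2, the partner of Ndufv1 in the NADH-oxidizing module, was steady at 11.51 ± 0.09 and 11.48 ± 0.13.

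The accessory subunits with the widest range turned on the array sets. Ndufs5, which faces the intermembrane space, read 10.53, 10.92, 7.75, 7.85, 7.38 and 6.89 in UBB+1 tg mice, and 10.77, 10.41, 10.57, 7.83 and 7.60 in wild-type mice. In both genotypes the middle set was at or below 7.85 and the other mice at or above 10.41. Its range of 4.02 and SD of 1.64 were the largest of all members, and its log2 fold change was -0.88 (standard error 0.90), or -0.04 (standard error 0.18) with the block.

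Ndufc2, a membrane-arm subunit whose transcript is among those the study named for CA3, had the lowest log2 fold change of all members. Its probe set 1416366_at read 8.35, 10.49, 6.55, 7.27, 6.75 and 6.58 in UBB+1 tg mice, and 10.40, 8.92, 10.23, 6.98 and 7.48 in wild-type mice. The middle set was again below all others, and the 2 wild-type mice of that set were above 3 of its 4 UBB+1 tg mice. The log2 fold change was -1.13 (standard error 0.84, unadjusted p = 0.203 and adjusted p = 0.984 by limma), or -0.30 (standard error 0.17) with the block, from 0.18, -0.44 and -0.56 in the low, middle and high sets. Without the block it was -1.70 when UBB+1 tg mouse tg271 was left out and -0.73 when wild-type mouse wt287 was. A brighter probe set of the gene, 1455036_s_at, ranged over 0.71 instead of 3.94 and differed by -0.22 (standard error 0.12), or -0.17 with the block.

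Ndufb11, a subunit of the distal membrane arm whose gene lies on the X chromosome (chrX:20615326-20617619, GRCm38.p6), was lower in UBB+1 tg mice on all of its 3 probe sets. Probe set 1416057_at read 10.19, 10.87, 9.75, 9.49, 9.60 and 9.43 in UBB+1 tg mice, and 11.59, 10.54, 10.93, 9.93 and 9.97 in wild-type mice. Within each array set, every UBB+1 tg mouse was below every wild-type mouse of that set. The log2 fold change was -0.70 (standard error 0.34, unadjusted p = 0.0625), and -0.38 (standard error 0.12, unadjusted p = 0.00955, adjusted p = 0.665 by limma) with the block, from -0.39, -0.38 and -0.35 in the low, middle and high sets. Without wild-type mouse wt287 the value without block was -0.45. The steadier probe set 1455911_x_at read 11.85, 11.95, 11.95, 12.06, 11.83 and 11.49, against 12.13, 12.09, 11.97, 12.09 and 12.15. It was the 1 member of MOE430A with an unadjusted p under 0.05 in the fit without block, with a difference of -0.23 (standard error 0.10, unadjusted p = 0.0395, adjusted p = 0.984 by limma), and all 6 UBB+1 tg mice lay below the wild-type mean. Without UBB+1 tg mouse tg277 the difference was -0.15. Its probes can bind related transcripts, as the suffix x marks, and without such probe sets the count was 0. The third, 1416056_a_at, differed by -0.16 (standard error 0.09).

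**Figure D4:**
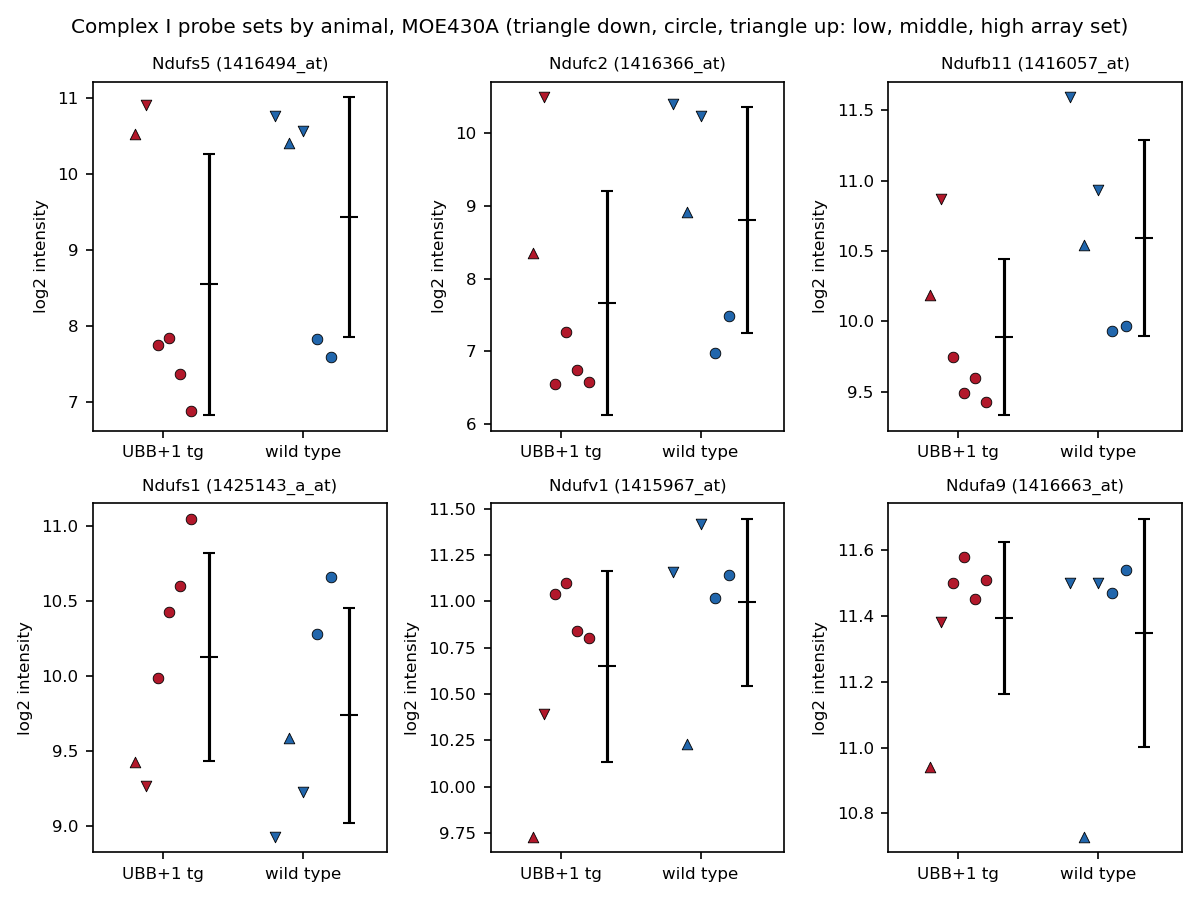
Log2 intensity (vertical axis) of 6 complex I probe sets on MOE430A in each mouse, UBB+1 tg in red on the left and wild type in blue on the right, with the mean and SD as bars. Triangles pointing down, circles and triangles pointing up are mice of the low, middle and high array sets. The circles are lowest in Ndufs5 and Ndufc2, highest in Ndufs1, and in Ndufb11 each red symbol is below the blue ones of its shape.

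Few members were higher in UBB+1 tg mice. Ndufa10, a membrane-arm subunit with the fold of a nucleoside kinase, was higher by 0.15 (standard error 0.15) on both of its probe sets. With the block, 1418068_at differed by 0.25 (standard error 0.10, unadjusted p = 0.0355, adjusted p = 0.687 by limma), and it was higher in UBB+1 tg mice of all 3 array sets, by 0.51, 0.19 and 0.04 in the low, middle and high sets. The brighter one, 1448934_at, differed by 0.04 with the block and by -0.17 in the middle set.

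Probe sets of 1 gene often gave different answers. Of 19 genes with several probe sets on MOE430A, 11 had log2 fold changes more than 0.3 apart. Ndufs4, which completes the NADH-oxidizing module and whose loss gives a Leigh-like disease in mice, differed by -0.87 (standard error 0.77) on 1448959_at, which ranged over 3.42, but by -0.12 and -0.10 on 1418117_at and 1438166_x_at, which ranged over 0.92 and 1.12. Ndufa5, an accessory subunit of the matrix arm, differed by -0.75 (standard error 0.83) on 1417286_at, with a range of 3.68, and by -0.34 (standard error 0.19) on 1417285_a_at, with a range of 1.20. Ndufb5, of the distal membrane arm, differed by -0.82 (standard error 0.63) and -0.21 (standard error 0.19), with ranges of 2.83 and 1.03. In each of these genes the probe set with the wider range had the lower fold change, and its middle-set mice lay below the others. In Ndufa7, of the matrix arm, all 5 probe sets ranged over 1.80 to 3.22 and had the middle set below the others, with log2 fold changes of -0.65 to -0.13, or -0.16 to 0.24 with the block.

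The start regions of the subunit genes were read for motifs of factors known to drive respiratory genes. Any link between these motifs and the values of the mice was not tested. RefSeq promoter windows of GRCm38.p6, from 250 bases before to 50 bases after the start, were found for 32 of the 36 genes, not for Ndufa2, Ndufa4l2, Ndufb9 and Ndufs1. The YY1 motif AAGATGGC, searched on both strands, was in 6 of 32 genes (18.8%), against 3.19% of all 27025 genes with such windows. All 6 matches (Ndufa3, Ndufa9, Ndufb8, Ndufc1, Ndufs4 and Ndufs7) were on the strand of the gene and began 22 to 38 bases downstream of the first base. The GABP motif CCGGAAG was in 4 of 32 (12.5%, against 9.93%), the core of the NRF-1 motif GCGCATGC in 2 of 32 (6.25%, against 3.05%) and the ERR alpha motif TCAAGGTC in 1 (3.12%, against 1.18%). These are matches of letters, not bound sites.

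Shown here are 4 of the 6 windows with the YY1 match, in capitals, taken after their values were seen to cover genes with a wide-ranging probe set and genes without one on MOE430A. They lie at chr3:51408906-51409205, chr13:114388045-114388344, chr6:126849095-126849394 and chr19:44555393-44555692 in GRCm38.p6, each on the minus strand, and are written along the gene.
Ndufc1: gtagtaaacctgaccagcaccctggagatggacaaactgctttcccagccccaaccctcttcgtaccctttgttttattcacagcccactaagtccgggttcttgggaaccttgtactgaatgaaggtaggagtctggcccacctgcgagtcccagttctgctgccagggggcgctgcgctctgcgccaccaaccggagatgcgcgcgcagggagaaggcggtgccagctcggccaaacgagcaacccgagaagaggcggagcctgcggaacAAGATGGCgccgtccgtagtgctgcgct
Ndufs4: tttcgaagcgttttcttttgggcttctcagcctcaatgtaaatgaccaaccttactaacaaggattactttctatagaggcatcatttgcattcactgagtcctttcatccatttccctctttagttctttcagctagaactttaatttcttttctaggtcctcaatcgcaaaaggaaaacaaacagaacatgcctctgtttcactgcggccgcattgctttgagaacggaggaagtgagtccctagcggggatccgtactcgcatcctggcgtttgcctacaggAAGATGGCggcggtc
Ndufa9: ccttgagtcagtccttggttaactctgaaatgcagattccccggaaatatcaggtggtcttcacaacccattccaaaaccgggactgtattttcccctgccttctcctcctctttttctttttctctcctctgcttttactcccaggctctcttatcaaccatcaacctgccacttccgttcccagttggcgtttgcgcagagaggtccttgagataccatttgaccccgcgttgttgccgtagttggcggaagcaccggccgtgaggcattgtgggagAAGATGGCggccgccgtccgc
Ndufb8: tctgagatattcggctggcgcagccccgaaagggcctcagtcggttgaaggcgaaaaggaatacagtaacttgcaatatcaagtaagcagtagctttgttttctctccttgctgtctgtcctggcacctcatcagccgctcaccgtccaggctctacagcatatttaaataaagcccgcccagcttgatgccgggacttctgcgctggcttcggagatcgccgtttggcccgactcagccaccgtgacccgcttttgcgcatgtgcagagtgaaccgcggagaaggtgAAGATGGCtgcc
On MOE430A, the probe sets of Ndufc1, a membrane-arm subunit, ranged over 1.84 and 2.63, and those of Ndufs4 over 0.92, 1.12 and 3.42. Ndufa9, which binds a nucleotide cofactor in the matrix arm, ranged over 0.85 and averaged 11.39 ± 0.23 in UBB+1 tg and 11.35 ± 0.35 in wild-type mice (SD, n = 6 and 5). Ndufb8, of the distal membrane arm, ranged over 0.44 and averaged 11.87 ± 0.15 and 12.02 ± 0.10. The probe sets of the genes not shown ranged over 2.85 and 3.12 (Ndufa3) and over 1.24 and 1.70 (Ndufs7). On MOE430B, the dimmer probe sets of Ndufs4, Ndufb8 and Ndufa3 ranged over 0.39, 0.94 and 0.84.

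On MOE430B, Ndufa4l2 was lower in every UBB+1 tg mouse than in any wild-type mouse. Ndufa4l2 is a homologue of Ndufa4 known for its induction by hypoxia, and Ndufa4 itself is now counted as a subunit of cytochrome c oxidase. Its log2 intensity was 7.15, 7.17, 7.15, 7.15, 7.15 and 6.89 in UBB+1 tg mice tg270 to tg277, and 7.50, 7.27, 7.54, 7.32, 7.27 and 7.33 in wild-type mice wt287 to wt331. The genotypes did not overlap, which held for 1 of the 10 members and for 0.142% of all probe sets of MOE430B. On MOE430A it held for 0 of 68 members and 0.234% of all probe sets. The log2 fold change was -0.26 (standard error 0.07, a fold of 0.83, unadjusted p = 0.00347), and the adjusted p of 1.0 by limma did not pass. With the block it was -0.23 (unadjusted p = 0.00453, adjusted p = 0.9), from -0.35, -0.22 and -0.12 in the low, middle and high sets. Ndufa4 on MOE430A followed the array sets and averaged 10.35 ± 1.11 in UBB+1 tg and 10.61 ± 0.75 in wild-type mice (SD, n = 6 and 5), a difference of -0.25 (standard error 0.52), or 0.13 with the block.

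**Figure D5:**
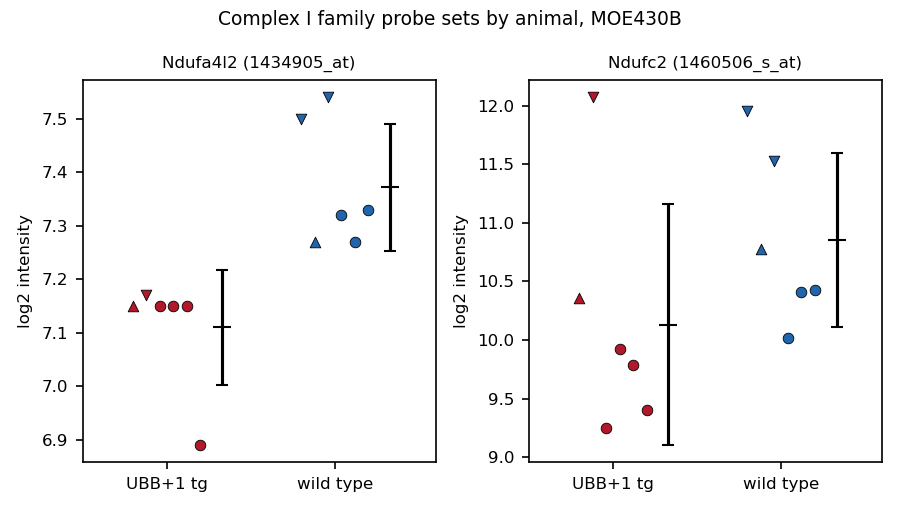
Log2 intensity (vertical axis) of Ndufa4l2 and Ndufc2 probe sets on MOE430B in each mouse, UBB+1 tg in red on the left and wild type in blue on the right, with the mean and SD as bars and the array set as the shape (triangle down low, circle middle, triangle up high). For Ndufa4l2 the red points end at 7.17 and the blue points begin at 7.27, and for Ndufc2 the genotypes overlap.

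The other probe sets of MOE430B were mostly dim, and 5 of the 10 lay above the median of that array. Of the 10, 6 were lower in UBB+1 tg mice, against 52.4% of all probe sets, with a median log2 fold change of -0.08 against -0.01. With the block 7 were lower, against 50.6% of all probe sets, with a median of -0.06. At an unadjusted p under 0.05 in limma, 1 member (Ndufa4l2) was lower, beside 1.53% of all probe sets, and 0 were higher, beside 1.52%. With the block these were 2, beside 2.68%, and 0, beside 2.38%. The count of lower members was 2 in the middle set alone, beside 2.63%, 3 with array weights, beside 3.12%, and 3 without UBB+1 tg mouse tg271, beside 3.11%. In all 3 array sets 3 of 10 were lower, beside 12.1% of all probe sets. The middle set lay wholly below the others in 0 of 10 members, beside 2.02%, and the median SD of the members over the mice was 0.19, against 0.18 for all probe sets, where on MOE430A it was 0.48 against 0.22.

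The second member with the block was Ndufc2 (1460506_s_at), the bright exception on this array. It read 10.36, 12.07, 9.25, 9.92, 9.79 and 9.40 in UBB+1 tg mice, and 11.95, 10.78, 11.53, 10.02, 10.41 and 10.43 in wild-type mice. In the middle and high sets every UBB+1 tg mouse was below every wild-type mouse of its set, while UBB+1 tg mouse tg271 of the low set was above all wild-type mice. The log2 fold change was -0.72 (standard error 0.46, unadjusted p = 0.141), and -0.41 (standard error 0.18, unadjusted p = 0.0435, adjusted p = 0.9 by limma) with the block. A dimmer probe set, 1431670_at, differed by -0.18 (standard error 0.10), or -0.13 with the block. Of the remaining genes, Ndufb4 and Ndufb2 differed by 0.00, and Ndufa3 by -0.14 (standard error 0.13).

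Assembly factors, which put complex I together but are no part of it, were also mostly lower in UBB+1 tg mice. On MOE430A, 10 of 12 measured factors of a list of 18 were lower, where 48.3% of all probe sets were. Their median log2 fold change was -0.19, or -0.20 with the block. In the blocked fit 5 factors had an unadjusted p under 0.05 by limma, all lower, beside 3.42% of all probe sets that were lower at that p. The largest difference was in Ndufaf3, an early assembly factor, with 8.84 ± 0.26 in UBB+1 tg and 9.34 ± 0.35 in wild-type mice (SD, n = 6 and 5), a difference of -0.50 (standard error 0.17, unadjusted p = 0.0142, adjusted p = 0.984 by limma), or -0.35 (unadjusted p = 0.00179, adjusted p = 0.658) with the block. Ndufaf7, a methyltransferase of the mitochondrial matrix, differed by -0.30 (standard error 0.15). On MOE430B, all 7 measured factors were lower, where 52.4% of all probe sets were, with a median of -0.17. Of the 7, 0 had an unadjusted p under 0.05. The middle set lay wholly below the others for 1 of the 12 factors of MOE430A.

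Genes of the other respiratory complexes, which take the electrons onward or make ATP, were compared at 1 probe set per gene on MOE430A. The middle set lay wholly below the others in 17 of 34 complex I genes, and in 0 of 4 genes of complex II, 4 of 9 of complex III, 5 of 10 of complex IV and 8 of 16 of complex V. Lower in UBB+1 tg mice were 3 of 4 genes of complex II, 7 of 9 of complex III, 7 of 10 of complex IV and 12 of 16 of complex V, with median log2 fold changes of -0.06, -0.16, -0.11 and -0.33. Of all probe sets of MOE430A, 48.3% were lower. With the block the medians of these complexes were -0.08, -0.07, -0.02 and -0.08. None of these genes had an adjusted p under 0.1 by limma in either fit. With the block 1, the complex II subunit Sdhd, was lower at an unadjusted p under 0.05 (log2 fold change -0.23, adjusted p = 0.687 by limma). Of all probe sets, 3.42% were lower at that p in the blocked fit.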

How the data were processed

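CA3 RNA was hybridized to Affymetrix MOE430A and MOE430B arrays, 5 ng of total RNA having been amplified in 2 rounds. The authors deposited RMA values, linear intensity in whole numbers on MOE430A and log2 values on MOE430B, normalized separately for each kind of array. The RMA software's version is not given in the sources used here. MOE430A intensity was taken to log2 here, with no further normalization. Control probe sets and 1 probe set in the transgene's promoter were left out. The number of arrays limits the precision.

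Genotypes were compared per array with lmFit and eBayes of limma 3.58.1 (R 4.3.3), two-sided. Benjamini-Hochberg adjustment ran over all probe sets, with a false discovery rate of 10%. The study reports regulated genes in CA3 at that rate from another program, ChipInspector. It also states that its results held in limma t-tests on RMA values at the same rate. Here 0% of all probe sets passed in the limma fit on genotype alone, so that statement was not reproduced. ChipInspector was not run here, and the reason for the difference was not tested. Array sets were built here by complete-linkage clustering on 1 minus Pearson r, without complex I probe sets, and used as a block. The tree was cut to give 3 sets, and other numbers of sets were not tried. The sets came from the same arrays that the blocked fit compares, so its p-values may be too small and are descriptive. The fit on genotype alone was tested on simulated data with independent noise in each probe set. Those data held no array sets, so they do not bear on the blocked fit or on arrays that vary together. Alternatives were a false discovery rate of 5%, median centring, a second quantile normalization, a floor at the 25th percentile, array weights, a trended robust variance, probe sets averaged per gene, leaving out dim or cross-hybridizing probe sets, the 3'-5' covariate, and leaving out each mouse.

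Members, gene lists and tests were chosen with earlier results of these data known. Named probe sets are, per array, the 6 with the smallest p in each direction, the 3 brightest, dimmest, most and least variable, the brightest of each core subunit, all of Ndufc2, and genes whose probe sets differ by over 0.3. Of the assembly factors and of the regulators of mitochondrial biogenesis, the 2 genes with the smallest p on MOE430A are named. Of complexes II to V, the gene with an unadjusted p under 0.05 in the blocked limma fit is named. Ndufa9, Ndufb8, Ndufc1 and Ndufa4 on MOE430A, and the markers given with their percentiles, were named after their values were seen.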

Additional observations from a re-analysis of the deposited data

Results flagged for a closer look

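Of 106 groups of mice examined for a single distant value, over 53 named probe sets, 4 had one. Chance gives about 1 in 20 such groups.

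Ndufa12 (1425919_at, MOE430A) read 4.17 in wild-type mouse wt290 and 4.09 in the other wild-type mice. These are linear values of 18 and 17, the smallest step that whole numbers allow. Ndufv2 (1452692_a_at, MOE430A) read 11.33 in UBB+1 tg mouse tg276 and 11.51 to 11.61 in the other UBB+1 tg mice. Ndufb9 (1455934_at, MOE430A), of the distal membrane arm, read 6.63 in wild-type mouse wt289 and 6.27 to 6.34 in the other wild-type mice. Ndufa4l2 (1434905_at, MOE430B) read 6.89 in UBB+1 tg mouse tg277 and 7.15 to 7.17 in the other UBB+1 tg mice, all below the lowest wild-type mouse at 7.27.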

How the results depend on the processing

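No complex I probe set passed the false discovery rate under any alternative, and the median log2 fold change on MOE430A (-0.22) stayed below 0, from -0.45 with array weights to -0.07 with the block, and from -0.36 (without tg271) to -0.12 (without tg277) over single mice left out. Of all probe sets on MOE430B, 1 passed, against 0, with the 3'-5' covariate, with averaging per gene, without dim probe sets and without wild-type mouse wt291 (0 to 1 over single mice left out). Members of MOE430A lower at an unadjusted p under 0.05 (1) numbered 0 with the 3'-5' covariate, with a trended robust variance, without cross-hybridizing and without dim probe sets, 3 with the block, 4 in the middle set and 26 with array weights, and 0 to 9 over single mice left out, with 9 without UBB+1 tg mouse tg271. It was 2 without tg270, tg274 or wild-type mouse wt291, and 0 without tg276, tg277 or wild-type mouse wt287. Higher members (0) numbered 1 with the block. On MOE430B lower members (1) numbered 2 with the block and in the middle set, 3 with array weights, and 1 to 3 over single mice left out, with 3 without UBB+1 tg mouse tg271. The median there (-0.08) was -0.18 without dim probe sets and -0.12 to -0.03 over single mice left out, with -0.03 without wild-type mouse wt290. The cause was not tested.

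Of 53 named probe sets, 20 changed sign somewhere. With the block, the log2 fold change turned to -0.06 for Ndufv1 (1415966_a_at), 0.03 for Ndufa12 (1418814_s_at), 0.24 and 0.09 for Ndufa7 (1422976_x_at, 1436567_a_at), 0.21 for Ndufs3, -0.04 for Ndufs8 (1455283_x_at) and -0.04 for Ndufb4. In the middle set it turned to 0.10 for Ndufa12 (1418814_s_at), -0.05 and 0.00 for Ndufa12 (1433513_x_at, 1455806_x_at), 0.16 for Ndufs3, -0.05 for Ndufab1 (1435934_at), -0.17 for Ndufa10 (1448934_at), -0.07 for Ndufv2, -0.23 for Ndufs8 (1455283_x_at) and 0.11 for Ndufab1 (1458678_at). With the 3'-5' covariate it turned to 0.06 for Ndufs8 (1423907_a_at), -0.03 for Ndufa12 (1433513_x_at) and -0.06 for Ndufb4. With array weights it turned to 0.09 for Ndufs8 (1434579_x_at), -0.02 for Ndufab1 (1435934_at) and 0.07 for Ndufv1 (1456015_x_at). The floor gave 0.00 for Ndufab1 (1435934_at) and Ndufs4 (1459760_at), and the mice on both arrays gave -0.02 for Ndufb4.

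Leaving out some single mouse moved the log2 fold change of 45 of 53 named probe sets by over 1.5 times, and of 8, Ndufa4l2 among them (-0.28 to -0.22), it did not. It spanned 0 for Ndufa12 (1433513_x_at, -0.05 to 0.04), Ndufa7 (1422976_x_at, -0.43 to 0.03), Ndufab1 (1435934_at, -0.02 to 0.07), Ndufb4 (-0.03 to 0.05), Ndufb8 on MOE430B (-0.08 to 0.11), Ndufb9 (1436803_a_at, -0.08 to 0.02), Ndufs3 (-0.37 to 0.03), Ndufs4 (1459760_at, -0.06 to 0.02), Ndufs8 (1423907_a_at, -0.11 to 0.10, 1434213_x_at, -0.04 to 0.09, 1434579_x_at, -0.09 to 0.08, and 1455283_x_at, -0.04 to 0.16), Ndufv1 (1415966_a_at, -0.07 to 0.12, and 1456015_x_at, -0.14 to 0.03) and Ndufv2 (-0.02 to 0.06).

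No paired analysis was possible because no mouse number or litter in the labels links a UBB+1 tg to a wild-type mouse. All mice of MOE430A were also on MOE430B, so that restriction gave nothing new there. On MOE430A, dim probe sets such as Ndufab1 (1435934_at) hold small whole numbers, which limits their precision.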

Other observations

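The regulators of mitochondrial transcription and biogenesis were mostly higher in UBB+1 tg mice on MOE430A, but not on MOE430B. On MOE430A, 9 of 11 measured genes were higher, beside 11693 of all 22625 probe sets. The 11 genes had a median log2 fold change of 0.17, against 0.00 for all probe sets, and of 0.17 with the array set as block. The smallest p was that of Esrra, a nuclear receptor of energy metabolism, with 7.51 ± 0.08 in UBB+1 tg and 7.36 ± 0.13 in wild-type mice (SD, n = 6 and 5), a difference of 0.14 (standard error 0.08, unadjusted p = 0.0813, adjusted p = 0.984 by limma). Ppargc1a, the coactivator PGC-1 alpha, differed by 0.52 (standard error 0.31). None had an unadjusted p under 0.05. On MOE430B, 1 of 3 was higher, with a median of 0.00, or 2 of 3 with a median of 0.04 with the block, and Esrra differed by 0.00 there.

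Of the CA2 markers on MOE430A, Rgs14 differed by 0.27 (standard error 0.28), and by 0.52 (standard error 0.10, unadjusted p = 0.000315, adjusted p = 0.406 by limma) with the block. Pcp4 differed by 0.33 (standard error 0.62), and by 0.82 (standard error 0.34) with the block. The CA2 marker measured on MOE430B, Amigo2, differed by -0.07 (standard error 0.10), and by -0.11 with the block. Their part in the values of complex I was not tested.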
